A study of Rattus norvegicus with 33 samples.

Results

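Mammary glands of rats that had borne and nursed a litter were compared with glands of rats of the same age that had never been pregnant. The comparison took the 5 arrays labelled adult parous and the 5 labelled adult nulliparous, all from postnatal day 181, which are 10 of the 33 arrays of a series on 6 stages of rat mammary development. All animals were female rats of the outbred Sprague-Dawley strain. They were control animals of a chemical exposure study and received only the vehicle, olive oil by stomach tube, at 0.5 mL until day 63 and 1 mL from then until day 180. The left and right caudal glands numbered 5 were collected, so each RNA sample is a mixture of every cell type of the gland. The parous rats were killed 35 days after the lactation group of the series, which was taken on lactation day 28 at postnatal day 146; when the parous rats themselves weaned their pups is not given in the sources used here. Animals of 1 group were killed on the same day and at no chosen phase of the estrous cycle. The labels used here give no calendar dates, so the day of collection and the group may divide the rats in the same way. Each array was taken as 1 animal.

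The mammary gland builds milk-secreting alveoli during pregnancy, empties them in lactation and removes them after weaning, a process called involution in which secretory cells die, the matrix is remodelled, immune cells enter and fat refills the gland. A gland that has gone through this cycle is called parous. Antibody-secreting plasma cells settle in the gland around lactation, and the polymeric immunoglobulin receptor carries their dimeric antibodies across the epithelium into milk. In bulk RNA, fewer cells of a type and less RNA per cell cannot be told apart.

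Of the 10 arrays, 3 of each group belonged to a first labelled batch (batch 1, RNA from a Promega kit) and 2 of each group to another (batch 3, RNA from a Zymo kit that was used for some of the fattier adult glands). Batch and kit are therefore the same split, and both groups were present in each. The 2 batches differed far more than the groups did. Correlations between arrays were 0.917 to 0.983 within batch 1, 0.91 to 0.984 within batch 3 and 0.58 to 0.697 between them, and 8501 of 10986 genes differed between batch 3 and batch 1. All levels are log2 RMA values, and group differences are parous minus nulliparous on that scale, fitted with batch as a term, given with the standard error. Markers of the gland were high on all 10 arrays, with the luminal keratin gene Krt19 at 10.48 to 11.77, the alveolar regulator Elf5 at 9.91 to 12.07 and the fat cell hormone gene Adipoq at 11.93 to 13.01.

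Very few genes separated the parous from the nulliparous gland. Of the 10986 genes tested, 2 passed an adjusted p of 0.05, 1 in each direction, which is 0.0182%. Mcpt8l2, a protease gene of the mast cell protease family, rose 1.6-fold, and Pcdh17, which encodes a protocadherin that takes part in cell adhesion, fell by 1.18 on the log2 scale. At an unadjusted p under 0.05 there were 273 genes higher in parous glands (2.48%) and 395 lower (3.6%), together 6.08% of those tested. Genes whose parous and nulliparous arrays did not overlap within batch 1 nor within batch 3 numbered 79 with parous higher (0.719%) and 119 with parous lower (1.08%). The median of all differences was -0.0035, with 5385 genes higher and 5601 lower.

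For most genes a 2-fold difference lay outside the interval that the data gave. The median standard error was 0.118, and for 10491 genes (95.5%) the 95% interval of the difference lay within 2-fold in both directions. For 8435 genes (76.8%) it lay within 0.5 on the log2 scale. The other 495 genes had intervals reaching past 2-fold, and a change of that size could not be bounded there. In simulated data with the same design and each gene's spread, 58.8% of changes of 0.5, 90.4% of changes of 1 and 98.5% of changes of 2 were called. There, 200 genes were changed and noise was drawn separately for each gene. Shifts shared by many genes of an array were not included, so the shares can be too high for the real arrays.

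Mcpt8l2 belongs to a cluster of proteases on chromosome 15 related to Mcpt8, known in mice as a product of basophils. In the nulliparous glands its level was 6.71, 6.73 and 6.75 in batch 1 and 8.28 and 8.73 in batch 3. In the parous glands it was 7.51, 7.14 and 7.26 in batch 1 and 9.40 and 9.26 in batch 3. Every parous array stood above every nulliparous array of its own batch, and the lowest parous values of batch 1 lay well under the nulliparous values of batch 3. The difference was 0.68 ± 0.12 (adjusted p = 0.0377, n = 5 in each group), at 0.57 in batch 1 and 0.83 in batch 3. All 6 values of batch 1 lay under the detection floor of 7.65, the median of all values of single-gene probe sets, where an array measures differences poorly. The call was absent when the batch was left out of the model (adjusted p = 1) and when 8 of the 10 arrays were each left out in turn (adjusted p up to 0.332). It was also absent in a fit of only the 10 arrays (adjusted p = 0.42) and with batch as a random block (0.115). With the B cell mean as a covariate the adjusted p was 0.0592, and with the T cell mean 0.0548. Mcpt8l2 was called in 11 of 30 alternative fits.

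Mcpt9, a neighbour of Mcpt8l2 in the same cluster, was higher by 1.02 ± 0.23 without passing the test (adjusted p = 0.182). Its nulliparous levels were 4.83, 4.99 and 4.46 in batch 1 and 8.16 and 8.47 in batch 3, against 6.20, 5.70 and 6.02 and then 8.46 and 9.63 in the parous glands. The groups were apart in batch 1, where all values were low, and touched in batch 3. These genes are near copies of each other, and binding of 1 gene's RNA to another's probes was not tested. The similarity reaches into the promoters, shown here as 100 bases of each gene from the plus strand of chromosome 15 in RefSeq's GRCr8 assembly, all lying before the start site, with capitals at the 11 positions where any of the 4 differ.
Mcpt8l2: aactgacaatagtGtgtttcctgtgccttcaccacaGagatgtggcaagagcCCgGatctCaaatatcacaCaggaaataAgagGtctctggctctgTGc
Mcpt9: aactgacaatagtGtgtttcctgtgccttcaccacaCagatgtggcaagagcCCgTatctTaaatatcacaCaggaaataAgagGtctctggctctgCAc
Mcpt8: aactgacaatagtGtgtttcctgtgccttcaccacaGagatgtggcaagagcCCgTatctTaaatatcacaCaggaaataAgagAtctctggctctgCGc
Mcpt8l3: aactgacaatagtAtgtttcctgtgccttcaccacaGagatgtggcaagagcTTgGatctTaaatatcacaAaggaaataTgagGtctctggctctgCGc

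The Mcpt8l2 stretch lies at chr15:33718313-33718412, that of Mcpt9 at chr15:33827272-33827371, that of Mcpt8 at chr15:33769499-33769598 and that of Mcpt8l3 at chr15:33673164-33673263. Mcpt9, Mcpt8 and Mcpt8l3 share 95, 96 and 93 of the 100 bases with Mcpt8l2. The other near copies gave little signal, chosen for display after their values were seen. Mcpt8 ranged from 4.51 to 5.76 over the 10 arrays and Mcpt8l3 from 3.57 to 4.58, and neither passed the filter on low values. Mcpt10, also below the filter, stood at 7.76 on parous array 4 and at 3.00 to 3.59 on the other 9. The mast cell list, with the enzyme and receptor genes of mature mast cells, had 4 of its 8 measured members higher and 4 lower, with a median difference of -0.01.

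Pcdh17 was lower in every parous gland. Its nulliparous levels were 7.42, 8.03 and 7.83 in batch 1 and 7.61 and 8.10 in batch 3, and its parous levels were 6.82, 6.93 and 6.62 in batch 1 and 6.04 and 6.66 in batch 3. All 5 parous values lay under all 5 nulliparous values and under the detection floor. The difference was -1.18 ± 0.21 (adjusted p = 0.036), a 2.27-fold fall, at -0.97 in batch 1 and -1.50 in batch 3. In the younger groups of the series its medians were 7.74 before puberty at day 21, 7.22 at day 42 and 6.75 at day 63, and the lactating glands stood at 6.85 to 7.36. All 5 nulliparous adults lay within the range of the youngest glands, 7.34 to 8.92, while the parous adults reached from below to the upper end of the pubertal range, 6.54 to 6.94. The call was absent in a fit of only the 10 arrays (adjusted p = 0.247) and without any of 6 of the 10 arrays, with adjusted p at most 0.199.

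**Figure D1:**
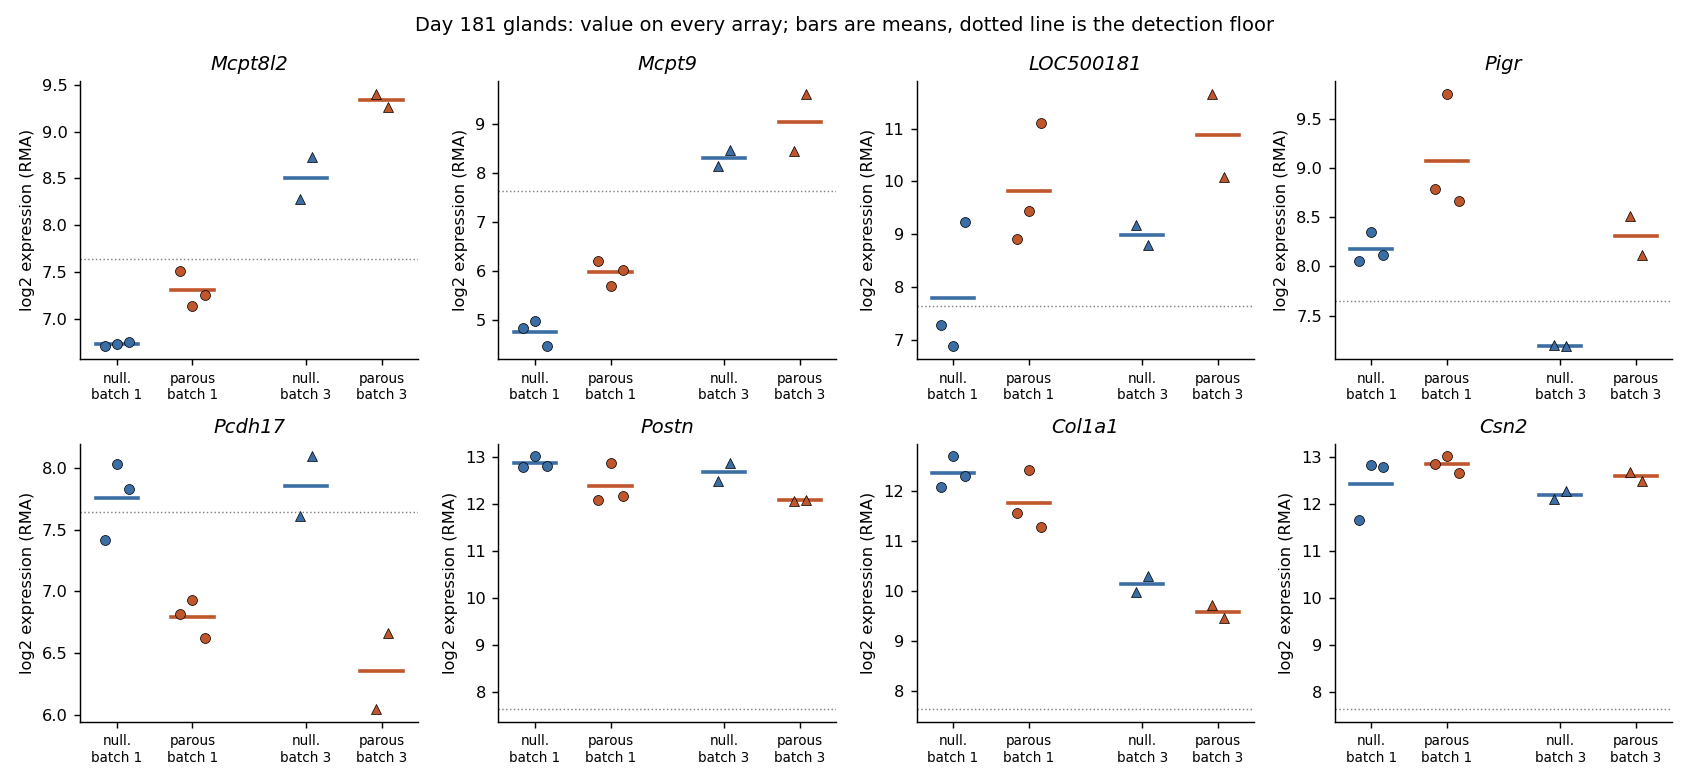
Log2 RMA level on each of the 10 arrays for 8 genes, one panel per gene; blue is nulliparous, orange is parous, circles are batch 1 (3 arrays per group), triangles are batch 3 (2 per group), bars are means within batch and the dotted line is the floor at 7.65. Mcpt8l2 and Pigr lay higher and Pcdh17 lower in every parous array of each batch, while the Csn2 values of both groups overlapped in batch 1.

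Antibody genes were among the largest differences measured, all short of the adjusted threshold. Antibody chains are assembled from variable (V) segments, and segments named as such in RefSeq were taken as a group after their values were seen. Of 14 V segments of the kappa light chain and heavy chain loci above the floor in at least 3 arrays, LOC691939 was there only through 3 parous arrays, so its direction was favoured by the filter. Of the other 13, 11 were higher in parous glands, 9 of them at an unadjusted p under 0.05 and none called, against 2.48% of all genes. The same 11 were higher in both batches. The median difference of all 13 was 1.46 (1.47 with LOC691939), at 1.11 in batch 1 and 1.57 in batch 3.

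LOC500181, a kappa segment, had the largest difference of any gene, 1.97 ± 0.41 (adjusted p = 0.142), a 3.92-fold difference. Its nulliparous levels were 7.28, 6.88 and 9.23 in batch 1 and 9.18 and 8.80 in batch 3, and its parous levels were 8.91, 9.45 and 11.11 and then 11.66 and 10.09. Within batch 1 the nulliparous array at 9.23 overlapped the parous range, and in batch 3 the groups were apart. The heavy chain segments Ighl14 (1.83 ± 0.73) and LOC691946 (1.48 ± 0.40) and the kappa segments LOC690275 (1.64 ± 0.36), LOC500161 (1.60 ± 0.43) and LOC690781 (1.55 ± 0.81) were among the others that were higher. The 2 lower segments were LOC690359 (-0.69 ± 0.56) and LOC691897 (-0.44 ± 0.59). Segments of a locus resemble each other, so RNA of 1 segment can bind probes of another, and they are not independent observations. Of 8 measured T cell receptor alpha segments, 6 were higher, with a median of 0.28.

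Most genes of antibody secretion went the same way. Among 11 measured genes of plasma cells and antibody transfer, 5 were higher at an unadjusted p under 0.05, against 2.48% of all genes, and none was called. In all 8 were higher and 3 lower, the lowest at -0.23, with a median of 0.46. That median was 0.29 without parous array 3, 0.18 without the 4 arrays of high B cell level and 0.19 with the B cell mean as a covariate. Pigr, the receptor that carries dimeric antibodies into milk, was higher by 0.98 ± 0.24 (adjusted p = 0.259). Its nulliparous levels were 8.06, 8.35 and 8.12 in batch 1 and 7.20 and 7.19 in batch 3, and its parous levels were 8.79, 9.75 and 8.66 and then 8.51 and 8.11. Every parous array stood above every nulliparous array of its batch. Jchain, the chain that joins antibody units for that receptor, differed by 1.31 ± 0.55, the plasma cell chaperone gene Mzb1 by 1.12 ± 0.46, Derl3, which works in disposal of misfolded secretory proteins, by 0.49 ± 0.19 and Prdm1, the regulator that commits B cells to secretion, by 0.46 ± 0.17. Xbp1, which drives the secretory program in many gland cells, differed by 0.09 ± 0.14. Tent5c, a poly(A) polymerase of plasma cells, differed by 0.48 ± 0.13 (adjusted p = 0.481).

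Arrays high in lymphocyte genes were in most cases also high in antibody segments. The mean level of 11 B cell genes was 6.81, 6.85, 9.92, 6.90 and 6.96 on nulliparous arrays 1 to 5 and 8.46, 6.62, 9.57, 9.75 and 6.96 on parous arrays 1 to 5. The mean of 16 T cell genes was 7.46, 7.44, 9.49, 7.78 and 7.66, then 8.58, 7.20, 9.36, 10.30 and 7.96. Nulliparous array 3 and parous arrays 1, 3 and 4 were thus high in both, and the other 6 arrays low. The mean of the 14 V segments was 7.69, 7.42, 9.59, 8.68 and 8.34 on the nulliparous arrays and 8.80, 9.27, 9.68, 10.48 and 9.24 on the parous arrays. These 14 include LOC691939, whose direction was favoured by the filter, here and in the fits below. Nulliparous array 3 was the highest nulliparous array, and parous arrays 4 and 3 the highest parous arrays, in both B cell genes and segments. Parous array 1 was high in B cell genes and lowest of the parous arrays in segments. Parous arrays 2 and 5, low in B cell genes, stood above the 4 nulliparous arrays that were low in them too. All 11 B cell genes and all 16 T cell genes had positive differences, with medians of 0.72 and 0.76, none at an unadjusted p under 0.05. The B cell median was 0.47 without nulliparous array 1, 1.33 without nulliparous array 3, 1.22 without parous array 2, 0.38 without parous array 3 and 0.18 without parous array 4. The T cell median was 1.24 without nulliparous array 3, 1.20 without parous array 2 and 0.28 without parous array 4. Without the 4 arrays of high B cell mean, a setting chosen after seeing the data, the medians of the B cell and T cell lists were -0.06 and -0.01. That of the 14 V segments, LOC691939 included, was 1.52, and a value for the other segments alone is not given here. With the B cell mean as a covariate the V segment median was 1.07, down from 1.47, and LOC500181 was called (1.59, adjusted p = 0.0224). Without the 4 arrays of high B cell mean LOC500181 was not called (1.73, adjusted p = 0.473), nor with the fat cell mean as a covariate (1.67, adjusted p = 0.309). It was called in 5 of 31 alternative fits. The part of lymphoid content in the antibody genes was not tested beyond these fits.

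**Figure D2:**
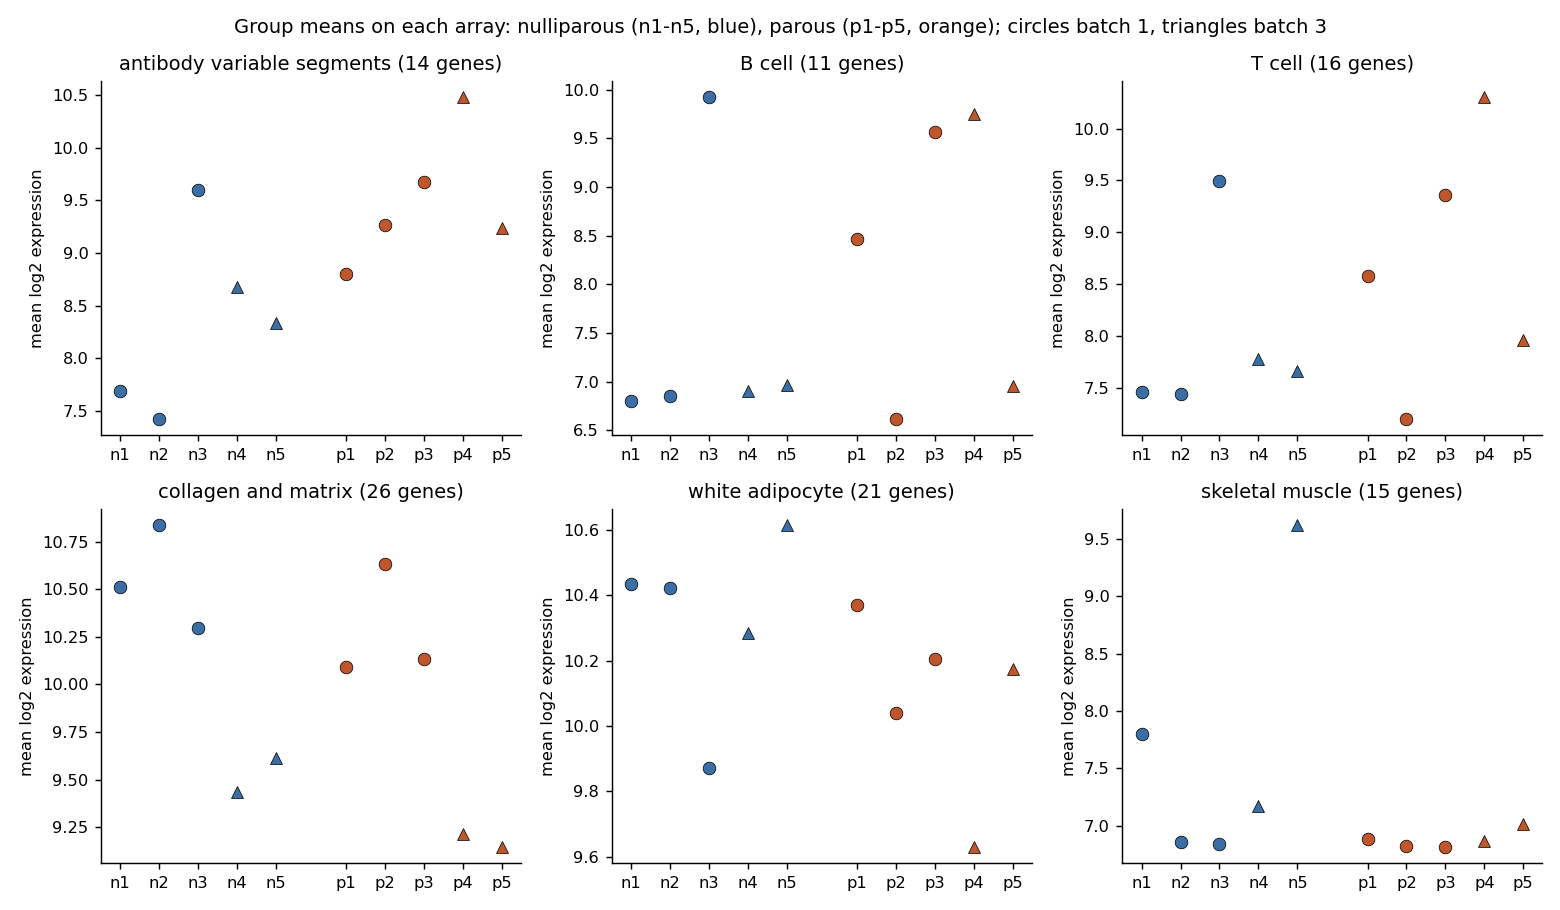
Mean log2 level of the measured genes of 6 lists on each array (n1 to n5 nulliparous in blue, p1 to p5 parous in orange; circles batch 1, triangles batch 3). B and T cell means split the arrays across both groups, nulliparous array 5 stands alone in muscle genes at 9.62, and the antibody segments, LOC691939 included, are lowest in nulliparous arrays 1 and 2.

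Matrix genes of the stroma were lower in parous glands as a group, and none was called. Of 26 measured collagen and matrix genes, 25 were lower and 12 had an unadjusted p under 0.05 in that direction, against 3.6% of all genes. In both batches 22 (84.6%) were lower, where 30.8% of all genes were, and the median difference was -0.28. That median was -0.18 without nulliparous array 2 and -0.45 without parous array 2. Postn, encoding periostin, a matrix protein of remodelling tissue, stood at 12.78, 13.01, 12.80, 12.49 and 12.86 in nulliparous glands and at 12.09, 12.87, 12.17, 12.06 and 12.09 in parous glands. Parous array 2 lay within the nulliparous range and the other 4 below it. The difference was -0.53 ± 0.13 (adjusted p = 0.32) and reached adjusted p = 0.0241 without parous array 2, the array that lay apart. Without each of the other arrays in turn the adjusted p was 0.209 to 0.959. It was 0.673 with the fat cell mean as a covariate. Without the 4 arrays of high B cell level the difference was -0.30 (adjusted p = 0.999).

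Col1a1, a chain of the main fibrillar collagen, was at 12.09, 12.70 and 12.32 in batch 1 and 10.00 and 10.30 in batch 3 of the nulliparous glands. In parous glands it was at 11.57, 12.44 and 11.28, then 9.73 and 9.46. The groups overlapped in batch 1 and not in batch 3, with a difference of -0.58 ± 0.18 (adjusted p = 0.514). Its partner Col1a2 differed by -0.59 ± 0.19, fibronectin (Fn1) by -0.53 ± 0.16, fibrillin (Fbn1) by -0.55 ± 0.20 and the collagen-binding protein Sparc by -0.23 ± 0.07. Dcn (-0.05 ± 0.11) and Eln (-0.09 ± 0.14), for the proteoglycan decorin and for elastin, lay near 0. With array weights, which give less weight to arrays that deviate, Col1a1, Col1a2, Col3a1, Fn1, Fbn1 and Postn were among 26 called genes.

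Growth factors and their binding proteins were mostly lower, by small amounts. Of 19 measured growth factors and binding proteins, 15 were lower and 4 higher, the highest by 0.43, with a median of -0.17. Of the lower ones, 4 had an unadjusted p under 0.05, where 3.6% of all genes were lower at that level. None was called. The median was -0.08 without nulliparous array 2, -0.29 without nulliparous array 3 and -0.07 with the B cell or the fat cell mean as a covariate. The 4 at an unadjusted p under 0.05 were Igfbp4, which binds insulin-like growth factors (-0.45 ± 0.14), Igf2 (-0.70 ± 0.28), Fgf10, which the stroma makes to drive duct growth (-0.56 ± 0.23), and Igf1 (-0.28 ± 0.13). The lower genes that follow were not members of this list. Vegfd, a growth factor for lymphatic vessels, differed by -0.91 ± 0.19 (adjusted p = 0.142), with nulliparous levels of 9.25, 9.88, 8.92, 8.38 and 8.85 and parous levels of 8.42, 9.07, 8.80, 7.01 and 7.43. Its arrays overlapped in batch 1 only. Frzb, a secreted inhibitor of Wnt signals, differed by -0.75 ± 0.17 (adjusted p = 0.195), and Gpc3, a cell surface proteoglycan that binds growth factors, by -0.67 ± 0.19. Gdf10, a member of the TGF-beta family, differed by -0.55 ± 0.16 and the eosinophil attractant Ccl11 by -0.85 ± 0.26.

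**Figure D3:**
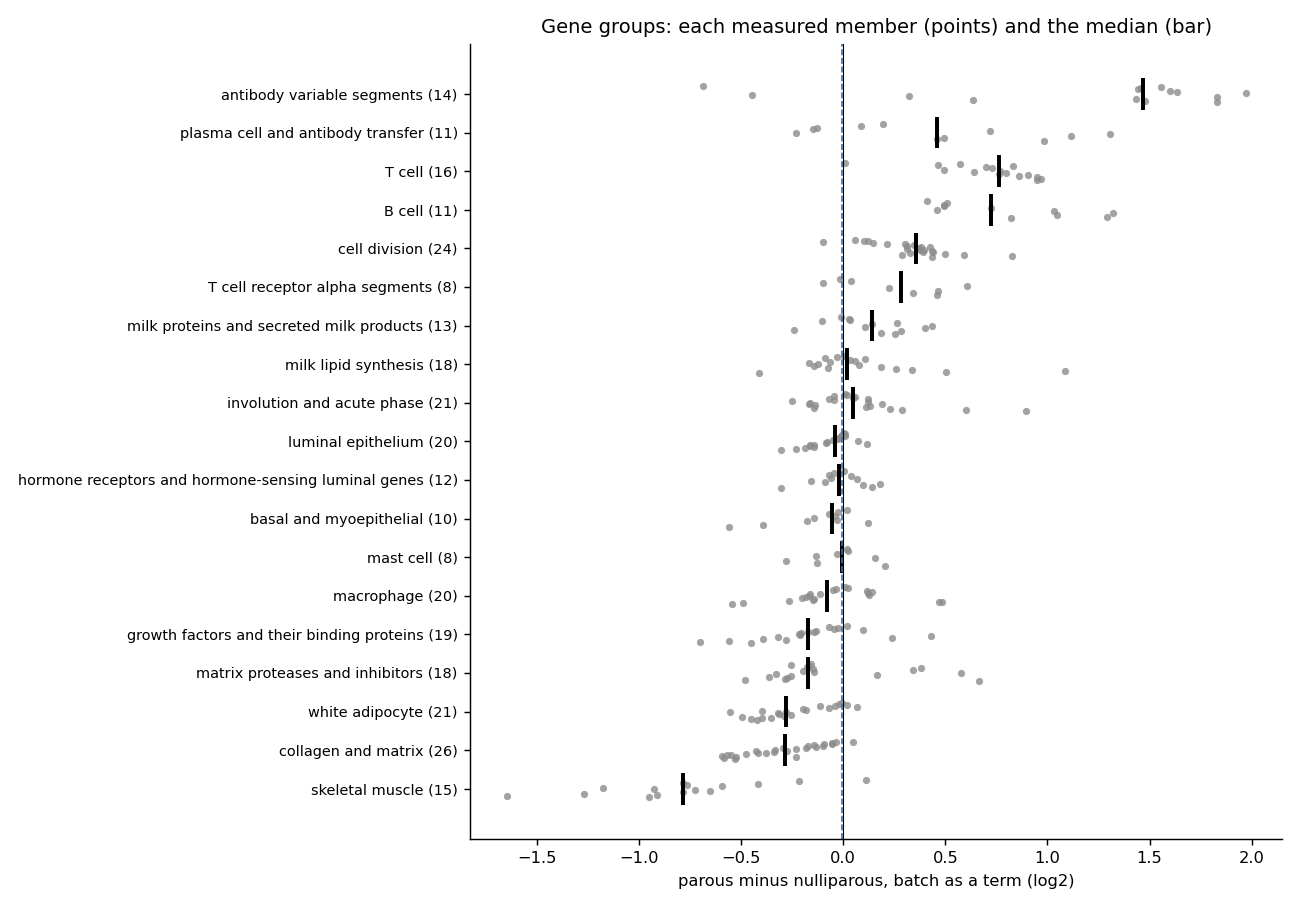
Parous minus nulliparous differences (log2, batch as a term) for every measured member of 19 gene groups, with the number measured in parentheses; points are genes, bars are medians and the dashed line is the median of all genes. The antibody segments, LOC691939 included, extend furthest to the right with a median of 1.47, collagen genes lie left of 0 except 1 of 26, and milk protein genes spread around 0.

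Markers of muscle and fat differed between single arrays as well as between groups. The mean of 15 skeletal muscle genes was 7.80, 6.86, 6.84, 7.17 and 9.62 on nulliparous arrays 1 to 5, and 6.82 to 7.01 on the parous arrays. Nulliparous arrays 2 and 3 thus lay within the parous range. Muscle genes were lower at 14 of 15 members, none at an unadjusted p under 0.05. Their median was -0.78, and -0.30 without nulliparous array 5. Myoz1 was above the floor in 3 arrays only with 1 nulliparous array counted. Without it 13 of 14 were lower, with a median of -0.78. Of 21 white fat cell genes 19 were lower, 3 at an unadjusted p under 0.05 (against 3.6% of all genes), with a median of -0.28. That median was -0.05 in batch 1 and -0.60 in batch 3, where parous array 4 had the lowest mean of the 10 arrays, 9.63. It was -0.17 without nulliparous array 5 and -0.15 without parous array 4. Adrb3, the fat cell receptor for noradrenaline, differed by -0.42 ± 0.17, Cidec, a lipid droplet protein, by -0.45 ± 0.19 and Lep, encoding leptin, by -0.55 ± 0.37. With the fat cell mean as a covariate the medians were 1.10 for V segments, LOC691939 included, and -0.18 for collagen and matrix. Neither Mcpt8l2 nor Pcdh17 was called in that fit (adjusted p = 0.142 and 0.115). The part of fat cell content in these differences was not tested beyond that fit.

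The epithelium gave no called gene. Of 13 measured milk protein genes none had an unadjusted p under 0.05, and the median difference was 0.14. It was 0.02 without nulliparous array 1, 0.24 without nulliparous array 2, 0.08 without parous array 2, 0.22 without parous array 3 and 0.04 without parous array 5. Wfdc18 was above the floor in 3 arrays only with 1 parous array counted. Of the other 12 genes 9 were higher, with a median of 0.12. Csn2, for beta-casein, stood at 11.67, 12.84, 12.79, 12.12 and 12.29 in nulliparous glands and at 12.86, 13.02, 12.66, 12.69 and 12.50 in parous glands, a difference of 0.40 ± 0.60 with a 95% interval from -0.82 to 1.62. The interval holds more than a 2-fold change in the upward direction, so such a change was not detectable. The whey protein gene Wap (-0.01 ± 0.64), the alpha-lactalbumin gene Lalba (-0.10 ± 0.53) and the kappa-casein gene Csn3 (0.03 ± 0.24) were not called. Lalba and Csn3 lay near the top of the array's scale, whose highest value was 14.23, so their differences can be compressed: Csn3 was at 13.09 to 13.57 on the 10 arrays and 13.61 to 13.71 in lactating glands, and Lalba at 13.09 to 13.50 and 13.58 to 13.79. Levels of milk genes in the virgin adults differed by gene. Csn3 was high there, at 13.10 to 13.52. Wap stood at 8.53 to 11.78 in nulliparous and 13.73 to 14.03 in lactating glands. Csn1s2b, another casein gene, stood near the floor at 7.56 to 8.57 in nulliparous glands and at 13.87 to 14.00 in lactating glands.

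Hormone receptors and the regulators of gland cell fate also failed to pass. Among 12 measured genes of hormone-sensing cells, 6 were higher and 6 lower, with the estrogen receptor Esr1 at -0.31 ± 0.17, the progesterone receptor Pgr at -0.16 ± 0.61 and the prolactin receptor Prlr at 0.04 ± 0.25. Pgr ranged from 7.70 to 10.67 in nulliparous and from 7.77 to 10.47 in parous glands, so the spread within a group was several times the difference. Areg, the growth factor that relays estrogen signals, differed by -0.07 ± 0.48 and ranged from 7.44 to 11.34. The estrous phase of each rat is not given in the sources used here. Elf5 (0.10 ± 0.44), which directs alveolar cells, Gata3 (-0.09 ± 0.24), which maintains luminal cells, and the basal keratin gene Krt14 (-0.14 ± 0.34) lay near 0. Of 20 luminal genes 15 were lower with a median of -0.04, and of 10 basal and myoepithelial genes 8 were lower with a median of -0.05.

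Cell division genes were higher at 23 of 24 members in both batches, with a median of 0.36 and none at an unadjusted p under 0.05. Their mean was 9.55 on parous array 2 and 7.46 to 8.80 on the other 9 arrays. Without parous array 2 the median was -0.04, without nulliparous array 1 it was 0.17, without parous array 4 it was 0.22, without nulliparous array 3 it was 0.57 and without parous array 1 it was 0.60. Bub1b was above the floor in 3 arrays only with 1 parous array counted, and the median without it was 0.35. The marker of dividing cells Mki67 differed by 0.42 ± 0.56.

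Genes of involution and inflammation had medians near 0. Of 21 measured involution and acute phase genes 13 were higher and 8 lower, with a median of 0.05. Orm1, an acute phase protein of blood, differed by 0.89 ± 0.33 and the complement gene C3 by 0.60 ± 0.28. Of 20 macrophage genes 12 were lower, with a median of -0.08. Mmp12, the macrophage elastase, stood at 9.93, 10.13, 9.25, 10.17 and 10.05 in nulliparous glands and at 10.57, 10.05, 10.59, 10.51 and 11.13 in parous glands. It was higher by 0.66 ± 0.22 (adjusted p = 0.563). In batch 1, parous array 2 overlapped the nulliparous arrays. Fcgr3a, a receptor for antibody-coated targets on macrophages and natural killer cells, differed by -0.54 ± 0.17. Of the 18 matrix proteases and inhibitors measured, Mmp12 among them, 13 were lower and the median was -0.17.

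Among the other leading genes, Ocm, encoding the calcium-binding protein oncomodulin, was higher by 0.66 ± 0.15 (adjusted p = 0.143) and did not overlap within either batch. Its nulliparous levels were 6.57, 6.72, 6.95, 7.46 and 7.53 and its parous levels 7.07, 7.26, 7.70, 8.04 and 8.47. Reg3b, for a secreted antimicrobial lectin, differed by -1.27 ± 0.34 (adjusted p = 0.443), with nulliparous levels of 7.91, 7.51, 7.02, 10.71 and 10.81 against 6.23, 5.99, 6.59, 9.58 and 9.24. Both batches were apart for Reg3b too. Asah2, a ceramidase gene (-0.60 ± 0.14, adjusted p = 0.177), and Tspyl1 (-0.32 ± 0.07) were also lower in every parous array of both batches. So were Abi2, a regulator of actin (-0.33 ± 0.09), Esrrg, an orphan nuclear receptor (-0.44 ± 0.12), and Tmem47 (-0.55 ± 0.16). Btf3, a factor that binds new proteins at the ribosome (0.23 ± 0.06), and the translation kinase gene Mknk2 (0.40 ± 0.11) were higher in every parous array of both batches.

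The 2 batches were compared directly, since they give separate estimates of the same difference from different animals and kits. No gene was called in the test of the difference between batches (0% of 10986; 395 had an unadjusted p under 0.05), and the smallest adjusted p was 0.63, shared by Tbcd, Atg4b, Wdr13, Ttc13 and Fam222b. Tbcd, a tubulin-folding factor, differed by -0.07 in batch 1 and by 0.80 in batch 3, and Fam222b by -0.02 and -0.65. Without batch 3 no gene was called, and 354 had an unadjusted p under 0.05. Of those 354, 241 (68.1%) had the same sign in batch 3, and of all genes 6414 (58.4%) did. The share was 71.3% (87 of 122) for genes higher in parous glands and 66.4% (154 of 232) for genes lower. Across genes, the differences of both batches correlated at r = 0.382, a description in which genes are not independent replicates.

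**Figure D4:**
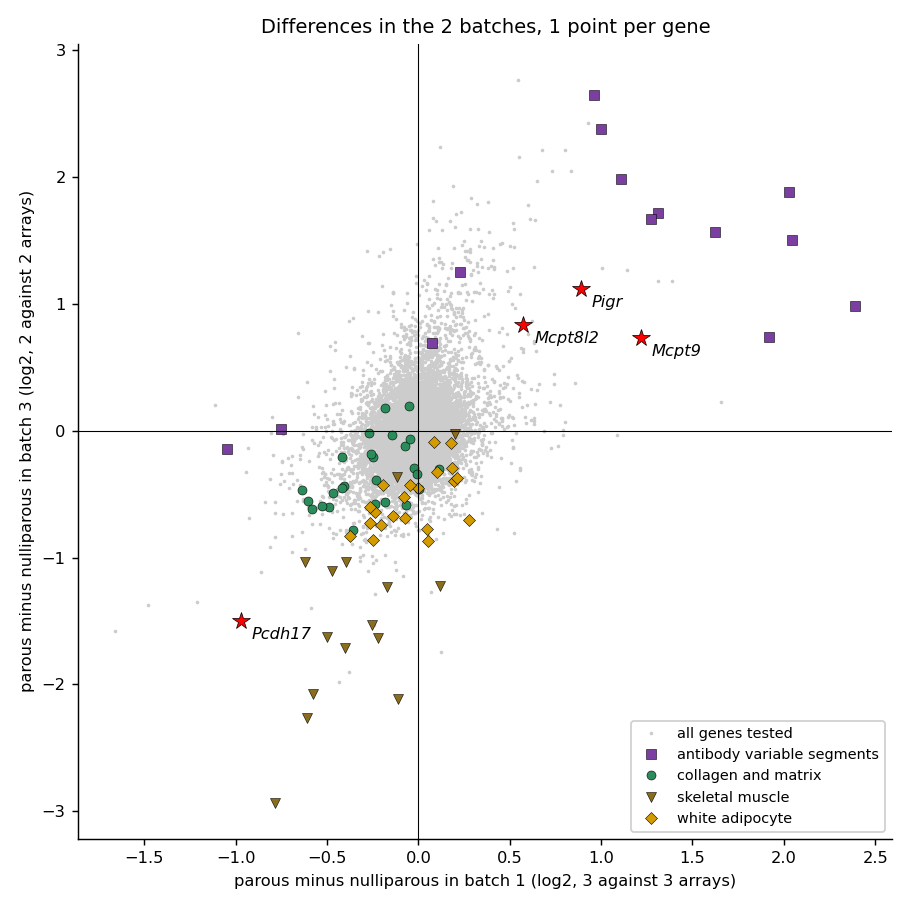
Each point is 1 of 10986 genes, with its parous minus nulliparous difference in batch 1 on the x axis and in batch 3 on the y axis (log2); coloured symbols mark 4 gene groups and stars mark 4 named genes. In the upper right quadrant lie 11 of 13 antibody segments and also LOC691939, which passed the filter only through parous arrays, muscle and fat cell genes spread downward along batch 3, and Pcdh17 stands at -0.97 and -1.50.

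Levels in lactation were set beside the parity differences, since parous glands had passed through that state. The lactation difference is lactating minus pubertal glands and shares no array with the parity comparison, but the lactating arrays all belong to batch 2, and so rest on the batch term. It called 4472 genes (40.7%). Of the 273 genes higher in parous glands at an unadjusted p under 0.05, 88 (32.2%) rose in lactation and 17 (6.23%) fell, where 23.8% of all genes rose and 16.9% fell. Of the 395 lower genes, 60 (15.2%) rose and 204 (51.6%) fell. In the other direction, the 88 genes are 3.37% of those that rose in lactation and the 204 are 11% of those that fell.

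Mcpt8l2 rose in lactation by 1.45 ± 0.15 (adjusted p = 2.12e-08) and Mcpt9 by 2.03 ± 0.29. Pigr rose by 4.97 ± 0.29, to between 12.25 and 12.56 in the 3 lactating glands, and LOC500181 by 2.95 ± 0.50. The parous levels of Pigr, at most 9.75, were below every lactating gland and above the 10 prepubertal glands, whose highest was 6.60. The same held for the nulliparous levels, 7.19 to 8.35. The highest pubertal gland, at 8.78, lay within the parous range. Ocm rose by 2.09 ± 0.18. Postn fell by 1.64 ± 0.16, Col1a1 by 2.95 ± 0.22 and Vegfd by 1.80 ± 0.24. Pcdh17 had a lactation difference of 0.29 ± 0.25 (adjusted p = 0.373).

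**Figure D5:**
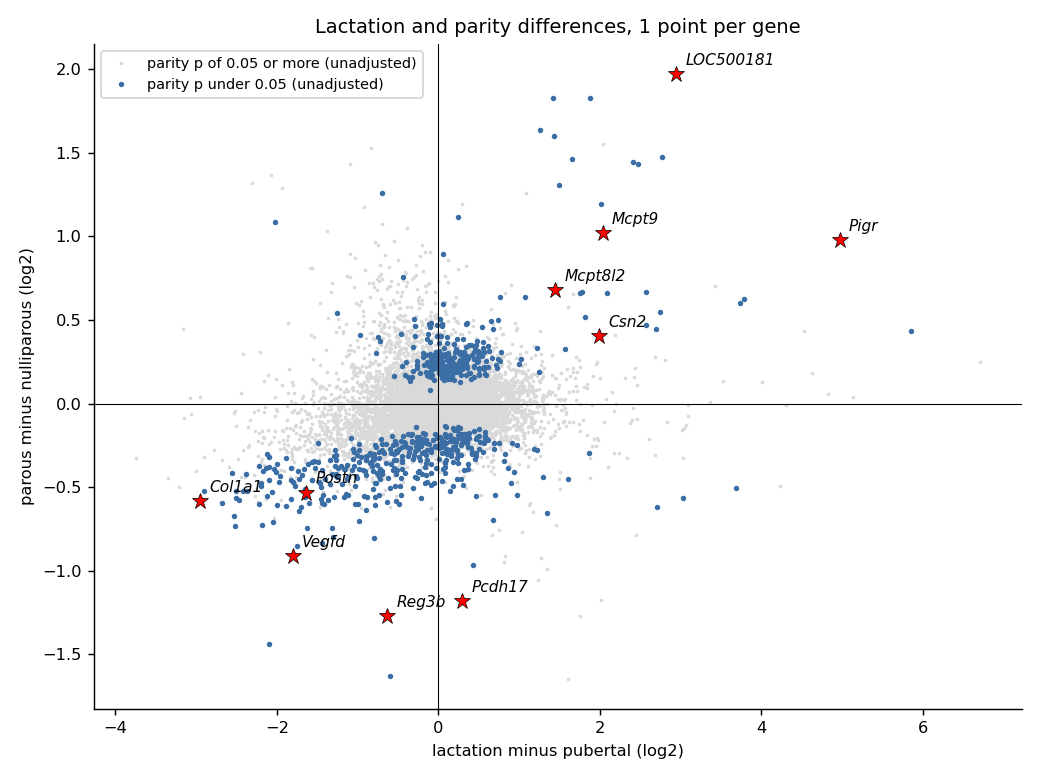
Lactating minus pubertal difference (x axis, log2) and parous minus nulliparous difference (y axis, log2) for each gene; blue points have an unadjusted parity p under 0.05 and stars mark 10 named genes. Of the blue points below 0, 204 of 395 fell in lactation, and Pigr stands at 4.97 and 0.98.

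Over the 10 arrays, after each batch's mean was taken out, the genes whose levels were most like Mcpt8l2 were Rpl23a (r = 0.908), a ribosomal protein gene, Csnk2a2 (0.873), a kinase subunit gene, Cox17 (0.866), which carries copper to mitochondria, and Bcor (0.864), a corepressor gene. Those most like Pcdh17 were Tst (0.953), a mitochondrial sulfur enzyme gene, Pex16 (0.939), needed for peroxisome formation, Degs1 (0.925), of ceramide synthesis, and Atp6v0e1 (0.922), of the proton pump. Their own parity differences were small, from -0.39 ± 0.13 for Tst to 0.24 ± 0.09 for Csnk2a2. These correlations describe 10 arrays and were the highest of 10986 genes.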

How the data were processed

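Total RNA of rat mammary glands was run on 33 Affymetrix arrays of whole transcripts, and the 10 arrays of day 181 are compared here. The authors deposited log2 expression values made with Affymetrix Expression Console and RMA, per the submitters' processing notes; for both, the version is not stated there, nor is a genome build. The deposited table lists no detection calls, and the number of arrays limits the precision.

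Names of probe sets came from the platform annotation. There, 18511 of 36685 had 1 symbol, 575 several and 17599 none listed, and 18394 matched RefSeq's GRCr8 gene table, used for names and for neighbouring genes. Each of 18166 symbols was represented by its brightest probe set (291 symbols had several). The 10986 above 7.65 in at least 3 arrays were tested with limma 3.58.1 (R 4.3.3; lmFit, eBayes with intensity trend) on all 33 arrays, with 6 stages and 3 batches as terms and 25 residual degrees of freedom, so all stages share 1 estimate of the spread. P-values were adjusted by Benjamini-Hochberg over all tested genes, with calls at an adjusted p under 0.05. The batch difference was tested as an interaction term. The procedure was tested on simulated data (5 simulations, 200 changed genes each; 4.73% of calls were false). Figures were drawn with matplotlib 3.10.9.

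The comparison and the gene lists (44 from general knowledge, with V segments of 2 kinds added after values were seen) were chosen with earlier results of these data known. Named genes are 15 rises and 15 falls with the same sign in both batches (called genes first, then those of smallest p, given as not called), up to 4 genes per list (or the 1 of smallest p where none was called), a panel of 24 genes, the 5 of smallest p in the batch test and the 4 most like each leading gene. Other genes were named after their values were seen. The alternatives were the batch term, filters, normalization, probe set choice, variance model, arrays fitted, covariates, thresholds, single batches and each array left out; those on the 4 lymphoid arrays, B cell with muscle, T cells, and unnamed probe sets were chosen after seeing the data. Lists were also counted with the parous or the nulliparous arrays left out of the filter on low values, a choice made after seeing the data.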

Additional observations from a re-analysis of the deposited data

Results flagged for a closer look

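Samples far from the other 4 of their group were sought in 192 groups of 5 (named genes and list means), of which 6 showed one. Chance gives about 1 in 20 groups if all 5 values come from 1 distribution. The values were not centred by batch, and each group mixes arrays of both batches. Where the batches differ, that rate need not hold and an outlying array can go unseen. Postn stood at 12.87 on parous array 2, against 12.06 to 12.17 on the other parous arrays. The milk protein list mean was 9.98 on nulliparous array 1, against 10.58 to 10.75. Nulliparous array 3 gave the other 4: its B cell mean was 9.92 (others 6.81 to 6.96), its T cell mean 9.49 (7.44 to 7.78), its lymph node chemokine mean 10.39 (8.77 to 8.88) and its T cell receptor alpha segment mean 7.96 (7.25 to 7.44). Parous arrays 1, 3 and 4 were also high in B cell genes, at 8.46, 9.57 and 9.75, so lymphoid RNA was not limited to a group.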

How the results depend on the processing

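The count of 2 called genes was 0 with a filter at the 75th percentile, with the fat cell mean as a covariate, in batch 1 only, in batch 3 only, in all arrays but batch 3 and at an adjusted p under 0.01. It was 1 with no batch term, with batch as a random block, with the luminal mean as a covariate, in only the 10 parity arrays (Spt1), without the 4 lymphoid arrays (LOC690275) and with a 2-fold minimum. It was 4 with no filter and with B cell and muscle means as covariates, and 26 with array weights. The count stayed at 2 with the B cell or the T cell mean as a covariate, where LOC500181 was called in place of Mcpt8l2. Leaving out 1 array gave 0 to 8 calls: 8 without nulliparous array 3, 4 without parous array 2, 2 without parous array 5, 1 without nulliparous array 1 and 0 without any of the others (nulliparous 2, 4 and 5, parous 1, 3 and 4). The batch difference, 0 calls, gave 0 to 33 over arrays left out: 33 without parous array 5 and 2 without nulliparous array 4. Genes called without batch 3 with the same sign in it, 0, became 1 with no filter and 1 with quantile normalization again, and stayed at 0 over each array left out. The count for lactation against pubertal glands, 4472, was 1780 with no batch term. For these counts the cause was not tested. Of 103 named genes, 21 changed sign under some alternative, none of them among the 30 leading ones. Of 1360 list medians under alternatives, 24 moved by more than the spread between arrays. Low signal limits Mcpt8l2, Mcpt9 and Pcdh17, with only 4, 4 and 3 of the 10 arrays above the floor. No paired analysis was possible because the labels give the groups no shared replicate numbers.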

Other observations

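When all deposited probe sets above the floor were tested, named or not, 12 of 17701 were called, and 10 of the 12 had no single gene symbol in the annotation. Among the 6526 tested probe sets without a single symbol, 474 had an unadjusted p under 0.05. With no filter on low values, Reg3a, a relative of Reg3b, and Slc17a8, a glutamate transporter gene, were called as lower besides Mcpt8l2 and Pcdh17.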
